A study of Oryctolagus cuniculus with 6 samples.

Results

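Expression of 10 BCL2 family genes was examined in injured rabbit facial nerve with and without an implanted I-125 seed. The members were chosen by gene symbol. BCL2, BCL2L1, MCL1 and BCL2A1 form the pro-survival class, and BCL2L11, BAK1, BID, BMF, BOK and BIK form the pro-death class. All 10 symbols were found among the 17396 genes of the count files, and all 10 were among the 14003 genes that passed the filter on low counts.

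The animals were wild type male Japanese white rabbits of 3 to 4 months. In the FNI group (facial nerve injury, n = 3) the main trunk of the facial nerve had been transected. In the FNI+I-125 group (n = 3) the nerve had been transected in the same way and a seed of 0.8 mCi, a sealed source of continuous low-energy γ-rays, had been placed beside it. Nerves of both groups were harvested on day 14. No uninjured nerve was analysed here, so each comparison concerns the seed on top of the transection.

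BCL2 family proteins decide whether the outer mitochondrial membrane stays sealed. The pro-survival proteins hold the pore-forming effectors BAX and BAK in check, while the BH3-only proteins, such as BIM, BID and BMF, occupy the pro-survival proteins or activate the effectors. Once the effectors open the membrane, cytochrome c leaves the mitochondrion, the apoptosome assembles and caspases are activated. Much of this control acts on the proteins, by cleavage, phosphorylation and degradation, which counts of mRNA do not measure.

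Depth was even across the libraries, with 16031151 to 16798012 counts each. Values are given as CPM, counts scaled to a common library size after TMM normalization, which corrects for differences in library composition. Values of a group are listed in the order of replicates 1, 2 and 3. FNI replicate 3 stood apart in its makeup. Summed over the list of 8 Schwann cell markers, it held 28129 CPM, against 5908 and 3245 CPM in the other FNI libraries and 560 to 3063 CPM in the FNI+I-125 libraries. Summed over the 7 measured leukocyte markers, it held 160 CPM, against 560 and 767 CPM in the other FNI libraries and 1223 to 1812 CPM in the FNI+I-125 libraries. No marker of these 2 lists was at 0 in any library. In bulk tissue, fewer cells of a type and less RNA per cell cannot be told apart.

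In the FNI+I-125 group, 2 of the 4 pro-survival genes and 5 of the 6 pro-death genes had a higher log2 fold change than 0. BCL2A1 differed most, at 5.48 times the FNI mean, and MCL1, BAK1 and BID were also higher in every FNI+I-125 library than in any FNI library. BCL2 and BCL2L1 had lower means, with overlapping groups. None of the 10 members met an adjusted p under 0.05 and a |log2 FC| of 1.5 or more in edgeR's quasi-likelihood test, and the share over all genes tested was 0%. At an unadjusted p under 0.05, 4 members passed, all higher, where 17.0% of all genes tested passed in either direction, 9.23% as higher and 7.73% as lower. These were MCL1, BCL2A1, BAK1 and BID. Without FNI+I-125 replicate 1 the 2 that passed were MCL1 and BAK1, and without FNI+I-125 replicate 2 they were MCL1 and BCL2L11. Groups did not overlap for 5 members, all higher, against 27.2% of all genes in either direction and 14.8% as higher. The median log2 fold change of the members was 0.81, and that of all genes tested was 0.013.

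**Figure D1:**
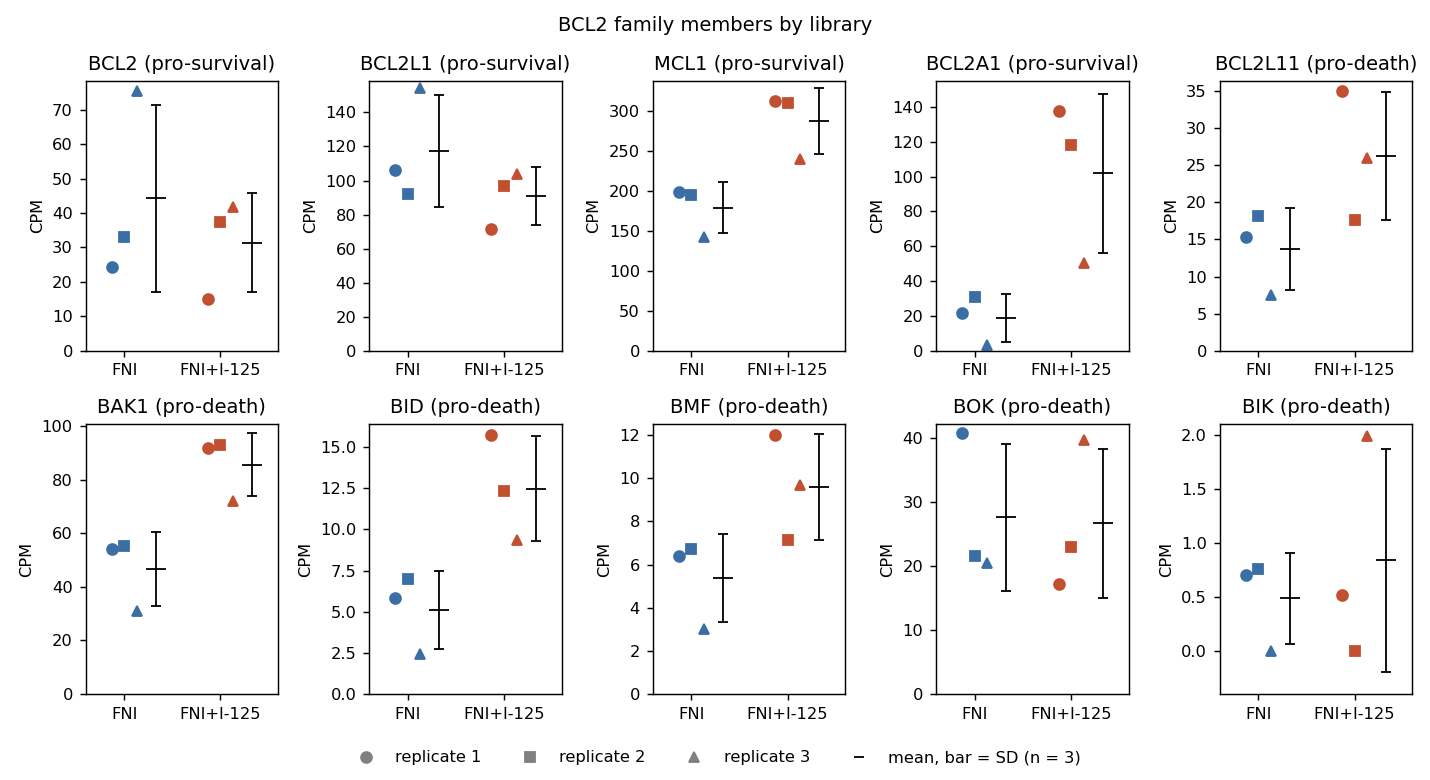
CPM of each member in each library (y axis, CPM), with FNI in blue and FNI+I-125 in red, and the mean with its SD (n = 3) beside the points. MCL1, BCL2A1, BAK1, BID and BMF show no overlap between the groups, and FNI replicate 3, the blue triangle, is the lowest library for these genes and the highest for BCL2 and BCL2L1.

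Among the pro-survival genes, BCL2A1 encodes A1, a short-lived protein expressed mainly in blood cells and induced by NF-κB. It had 368, 489 and 60 counts under FNI alone and 2105, 1943 and 859 counts with the seed. This was 21.5, 30.8 and 3.54 CPM against 137, 118 and 50.4 CPM. The lowest FNI+I-125 library lay above the highest FNI library. The mean was 18.6 ± 13.8 CPM without and 102 ± 45.7 CPM with the seed (SD, n = 3 each), with a log2 fold change of 2.45 (standard error 0.80, edgeR's unadjusted p = 0.0221, Benjamini-Hochberg adjusted p = 0.280). The exact permutation test gave p = 0.1, which is the smallest p that 3 against 3 allow. BCL2A1 varied more than the other expressed members, with 38.8 times more CPM in its highest than in its lowest library. Without FNI replicate 3 its log2 fold change was 1.95 (unadjusted p = 0.0107). The unadjusted p was 0.0557 without FNI replicate 1, 0.0619 without FNI+I-125 replicate 1 and 0.0570 without FNI+I-125 replicate 2.

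MCL1 encodes a pro-survival protein with very fast turnover that many cell types need. It stood at 199, 196 and 142 CPM under FNI alone and at 313, 310 and 241 CPM with the seed. Every FNI+I-125 library was above every FNI library, and the spread within the groups was small, with coefficients of variation of 17.8% and 14.2%. The fold of the means was 1.61, and the log2 fold change was 0.68 (standard error 0.19, unadjusted p = 0.0122, edgeR's adjusted p = 0.280, exact permutation p = 0.1). Leaving out any 1 library kept MCL1 between 0.53 and 0.79 on the log2 scale and its unadjusted p under 0.05. MCL1 had the smallest p-value of the members and stood at position 564 among the 14003 genes ranked by p-value.

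BCL2, the founding member of the family, had 24.5, 33.2 and 75.3 CPM under FNI alone and 14.9, 37.4 and 41.8 CPM with the seed. The groups overlapped, and the highest and the lowest value came from FNI replicate 3 and FNI+I-125 replicate 1. Its log2 fold change was -0.50 (95% interval -1.85 to 0.85, edgeR's adjusted p = 0.635), and without FNI replicate 3 it was 0.10. BCL2L1, which encodes BCL-xL, had its highest and lowest values in the same libraries, with 106, 91.8 and 154 CPM against 71.4, 96.8 and 104 CPM. Its log2 fold change was -0.37 (95% interval -0.98 to 0.23, edgeR's adjusted p = 0.433), and -0.15 without FNI replicate 3. For both genes the interval includes a difference of 0.

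Of the pro-death genes, BAK1 encodes BAK, one of the pore-forming effectors at the outer mitochondrial membrane. It had 54.2, 55.4 and 30.8 CPM under FNI alone and 91.9, 93.1 and 72.1 CPM with the seed. The groups did not overlap. The mean was 46.8 ± 13.9 CPM against 85.7 ± 11.8 CPM (SD, n = 3 each), or 0.87 as the log2 fold change (standard error 0.26, unadjusted p = 0.0145, edgeR's adjusted p = 0.280, exact permutation p = 0.1). BID, the BH3-only protein that caspase-8 cleaves and that links death receptors to the mitochondrion, was scarcer, with 100, 111 and 41 counts against 241, 203 and 160 counts. This was 5.09 ± 2.38 CPM against 12.5 ± 3.18 CPM (SD, n = 3 each), again with no overlap. The log2 fold change of BID was 1.30 (standard error 0.44, unadjusted p = 0.0249, edgeR's adjusted p = 0.280, exact permutation p = 0.1), or 0.94 without FNI replicate 3. Its unadjusted p in edgeR was 0.0776 without FNI+I-125 replicate 1 and 0.0606 without FNI+I-125 replicate 2, where that of BAK1 was 0.0521.

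BCL2L11 encodes BIM, a BH3-only protein that can bind every pro-survival member. It had 15.4, 18.2 and 7.56 CPM under FNI alone and 35.0, 17.7 and 26.0 CPM with the seed. FNI+I-125 replicate 2 lay below FNI replicate 2, so the groups overlapped (log2 fold change 0.94, standard error 0.40, edgeR's adjusted p = 0.302). BMF, a BH3-only protein that binds motor complexes of the cytoskeleton, had 109, 107 and 51 counts against 184, 117 and 165 counts, or 5.37 ± 2.05 CPM against 9.60 ± 2.45 CPM (SD, n = 3 each). These groups did not overlap, with 0.84 as the log2 fold change (standard error 0.38, edgeR's adjusted p = 0.315). Neither gene passed at the unadjusted p with all libraries. The unadjusted p of BCL2L11 in edgeR was 0.0449 without FNI replicate 2 and 0.0413 without FNI+I-125 replicate 2.

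BOK, a BAX-like effector whose protein is held low by degradation, had no direction that held as libraries were left out. It had 40.8, 21.5 and 20.4 CPM under FNI alone and 17.2, 23.0 and 39.7 CPM with the seed, so each group held 1 high library. Its log2 fold change was -0.051 (95% interval -1.05 to 0.95), and it was positive without FNI replicate 1 (0.34), without FNI+I-125 replicate 1 (0.18) or without FNI+I-125 replicate 2 (0.013). BIK, a BH3-only protein of the endoplasmic reticulum, was barely detected, with 12, 12 and 0 counts under FNI alone and 8, 0 and 34 counts with the seed. A count of 0 allows up to 3 counts, or 0.177 CPM in FNI replicate 3 and 0.182 CPM in FNI+I-125 replicate 2, for counting error only. Its 95% interval ran from -3.02 to 4.60 on the log2 scale, and the counts varied widely within each group.

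**Figure D2:**
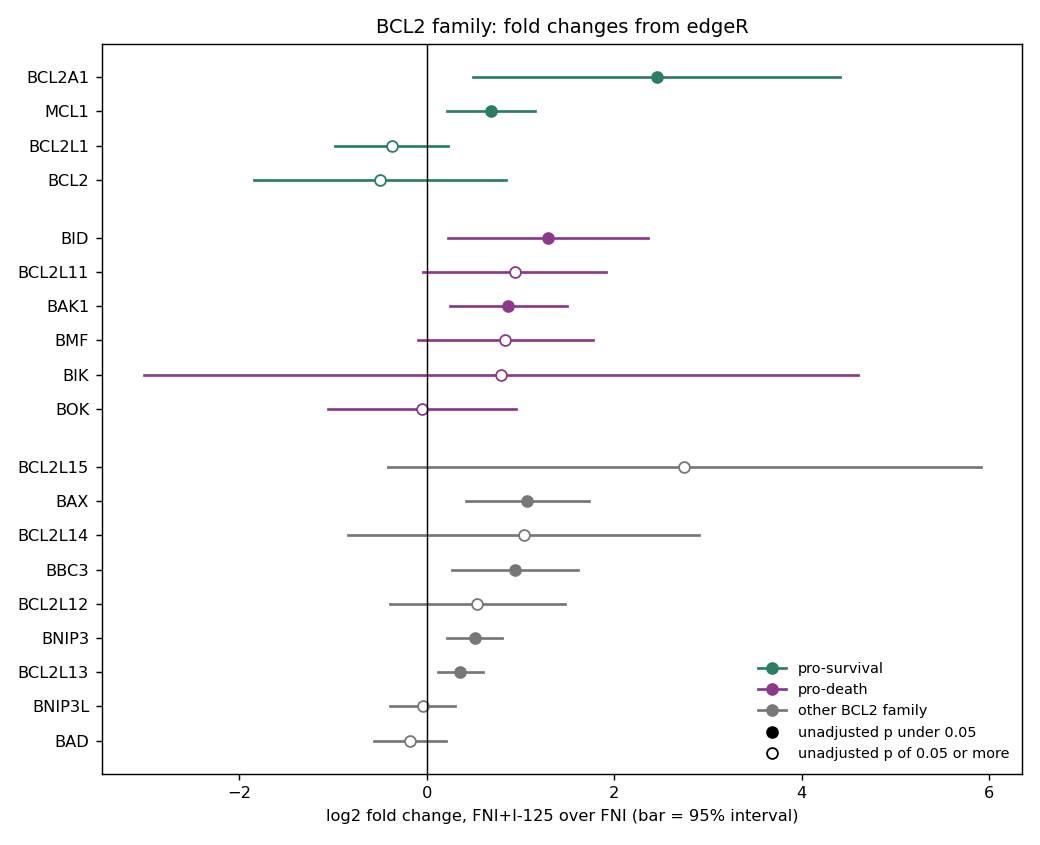
Log2 fold change of FNI+I-125 over FNI (x axis) with its 95% interval for the 10 members and the 9 other tested genes of the family, with filled points for an unadjusted p under 0.05. BCL2A1 has the largest fold change of the members at 2.45, BCL2 and BCL2L1 lie left of 0, and 5 of the 6 pro-death members lie right of it.

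The classes were then set against each other within each library. The mean log2(CPM + 1) of the pro-survival genes was 5.89, 6.06 and 5.72 under FNI alone and 6.39, 6.76 and 6.43 with the seed. That of the pro-death genes was 3.61, 3.56 and 2.71 against 4.04, 3.69 and 4.11. Both class means were therefore higher in every FNI+I-125 library, by 0.64 for the pro-survival and 0.66 for the pro-death class. The difference between the classes was 2.28, 2.50 and 3.01 under FNI alone and 2.35, 3.08 and 2.32 with the seed. It averaged 2.60 ± 0.37 and 2.58 ± 0.43 (SD, n = 3 each), so its change of -0.016 was smaller than the spread between libraries. No test was made on these means, since the members are not replicates.

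Without BCL2A1 the pro-survival mean was 6.56 ± 0.30 without and 6.52 ± 0.32 with the seed (SD, n = 3 each). The difference between the classes was then 2.75, 2.86 and 4.18 against 2.11, 3.03 and 2.57, a change of -0.69 with overlapping groups and with FNI replicate 3 as the highest library. Pairs of single genes went both ways. The log2 difference of BCL2A1 to BCL2L11 was 0.46, 0.73 and -0.91 under FNI alone and 1.94, 2.67 and 0.93 with the seed, higher without overlap. That of BCL2L1 to BAK1 was 0.96, 0.72 and 2.29 against -0.36, 0.055 and 0.52, lower without overlap. Of the 24 pairs of a pro-survival with a pro-death gene, 4 were higher and 4 were lower without overlap. Of all genes tested singly, 14.8% were higher and 12.3% were lower without overlap, and no such share was taken over pairs. The pairs reuse the same genes, so they are not separate results. The higher pairs all held BCL2A1, and the lower pairs joined BCL2L1 or MCL1 with BAK1 or BID.

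**Figure D3:**
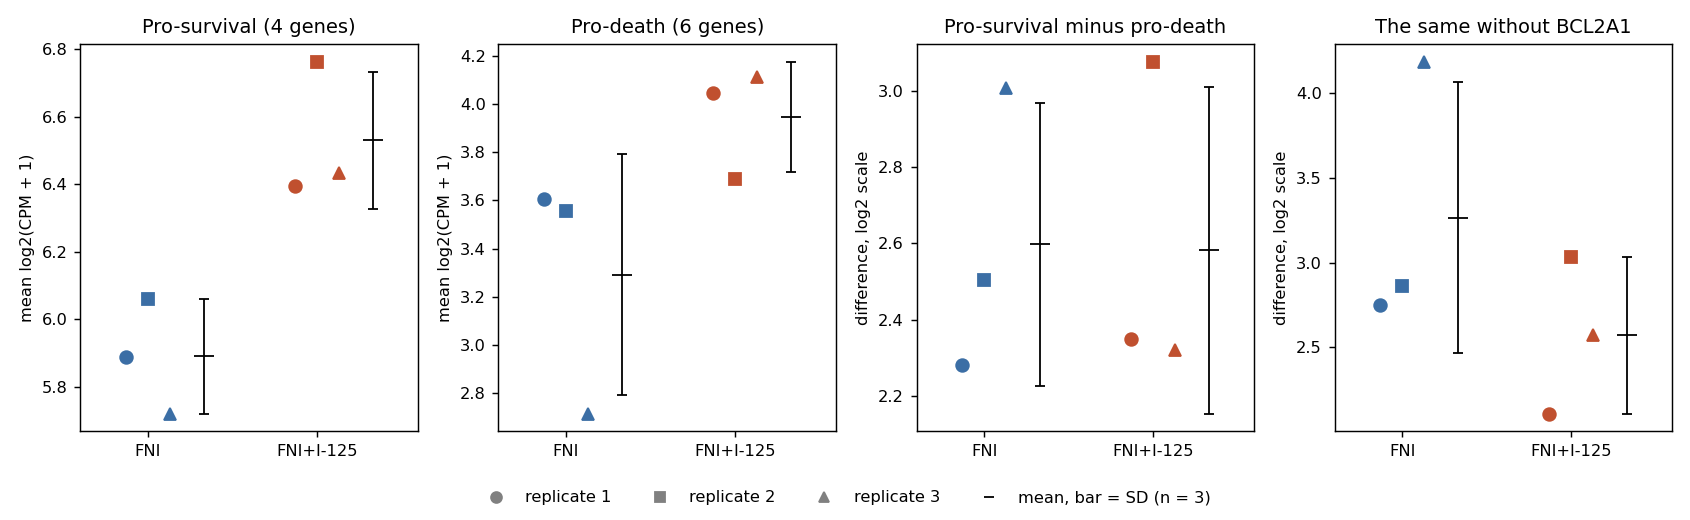
Mean log2(CPM + 1) of the pro-survival and pro-death members in each library, their difference, and the difference without BCL2A1, with the mean and SD (n = 3) beside the points. Both class means are higher in FNI+I-125, their difference averages 2.60 and 2.58, and without BCL2A1 it averages 3.26 and 2.57.

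Blood cell markers had higher levels with the seed, as had MCL1, BCL2A1, BAK1, BID and BMF, while BCL2 and BCL2L1 were highest in the library with the lowest leukocyte sum. All 7 measured leukocyte markers had a higher mean in the FNI+I-125 group, with summed levels of 160 to 767 CPM in FNI and 1223 to 1812 CPM in FNI+I-125. All 8 macrophage markers did so too, with sums of 220 to 895 CPM and 1195 to 1988 CPM. BCL2A1 was lowest in the library with the lowest leukocyte sum, FNI replicate 3, and the same library was lowest for MCL1, BCL2L11, BAK1, BID and BMF. The part of these cells in the members' values was not tested. The log2 ratio of BCL2A1 to the summed leukocyte markers, a scale chosen after values were seen, was -4.64, -4.59 and -5.14 under FNI alone and -3.45, -3.93 and -4.57 with the seed. This ratio was 0.81 higher in FNI+I-125 (exact permutation test, p = 0.1), with FNI+I-125 replicate 3 barely above FNI replicate 2. For the other 9 members the same ratio had a lower mean in FNI+I-125, with differences from -0.66 for BID to -2.32 for BCL2. Of these, BCL2, BCL2L1, MCL1, BCL2L11, BAK1 and BMF were lower without overlap (exact permutation test, p = 0.1 for each). No share over all genes was taken on this scale, so how many members were lower has no background. The leukocyte sum itself was higher in FNI+I-125, so any gene that rose less than this sum has a lower ratio.

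Neutrophil markers, of which S100A9 was the most abundant, summed to 115, 39.1 and 10.2 CPM under FNI alone and to 1604, 47.9 and 145 CPM with the seed. These sums overlapped between the groups, and their part in the members' values was not tested. T cell markers summed to 3.42 to 24.9 CPM in FNI and 21.1 to 68.2 CPM in FNI+I-125, with CD3G and TRAT1 at 0 counts in at least 1 library. B and plasma cell markers summed to 19.9 to 515 CPM and 376 to 865 CPM, mostly JCHAIN, with MS4A1 at 0 in at least 1 library. Schwann cell markers went the other way, with 8 of 8 means lower in FNI+I-125, as did adipocyte markers, with sums of 1341 to 3058 CPM in FNI and 905 to 1157 CPM in FNI+I-125. Sums for fibroblast, endothelial, muscle, and salivary and epithelial markers overlapped between the groups. Muscle markers reached 3763 and 3619 CPM in FNI+I-125 replicates 1 and 2 and stood at 44.3 CPM in replicate 3. MCL1, BCL2A1, BAK1 and BID were also lower in FNI+I-125 replicate 3 than in replicates 1 and 2. Within this group BCL2, BCL2L1, BOK and BIK were highest in replicate 3, and BCL2L11 and BMF were lowest in replicate 2. The leukocyte sum of the group was also lowest in replicate 3, at 1223 CPM. The part of muscle in the members' values was not tested.

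**Figure D4:**
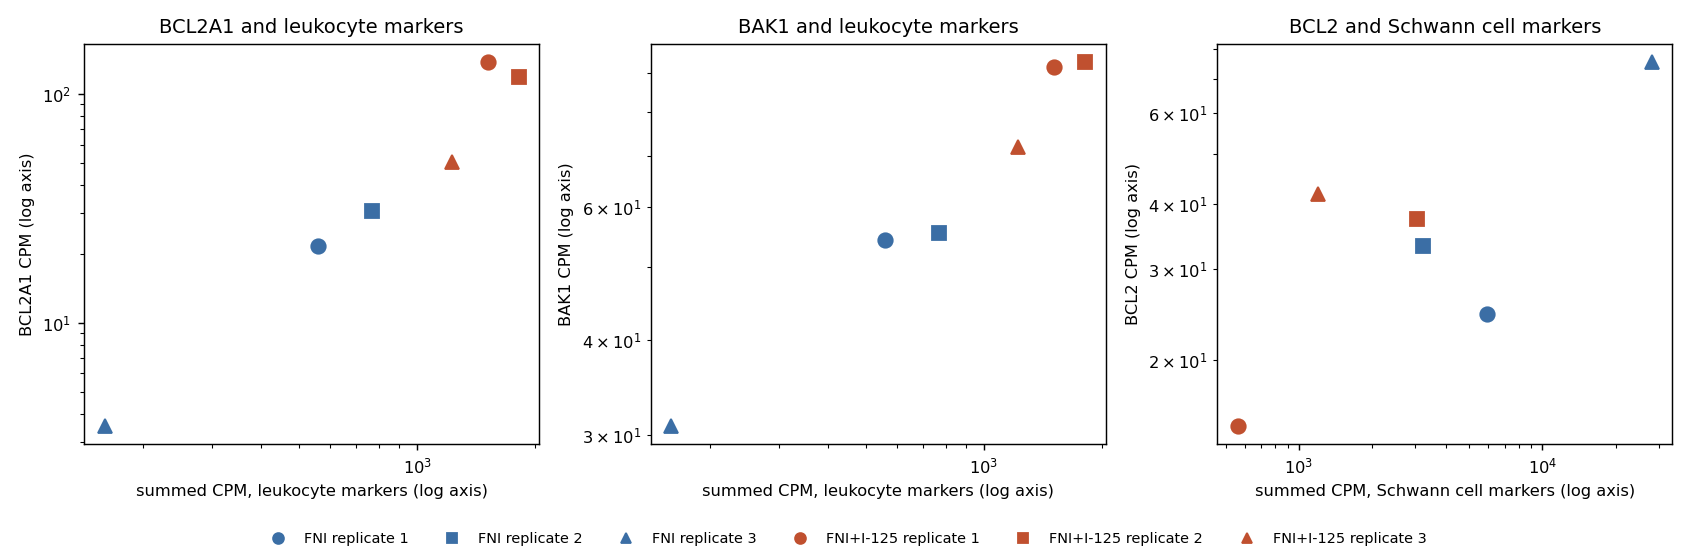
CPM of BCL2A1 and BAK1 against the summed CPM of the leukocyte markers, and CPM of BCL2 against that of the Schwann cell markers, 1 point per library on log axes. FNI replicate 3 lies at 160 CPM of leukocyte markers with 3.54 CPM of BCL2A1, and at 28129 CPM of Schwann cell markers with the highest BCL2 value, 75.3 CPM.

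In the rest of the family, 11 of 13 listed genes were in the files and 9 were tested. At the unadjusted p 4 of the 9 passed, all higher, where 17.0% of all genes tested passed in either direction and 9.23% as higher. At edgeR's adjusted p 0 passed, and the smallest adjusted p over all genes was 0.141. Without FNI replicate 1, 2 passed, BAX and BNIP3, where 13.6% of all genes did. BAX, the effector that works beside BAK and a target of p53, had 517, 449 and 321 counts under FNI alone and 625, 1150 and 893 counts with the seed. Its log2 fold change was 1.07 (standard error 0.27, unadjusted p = 0.00709, edgeR's adjusted p = 0.280), and the unadjusted p stayed under 0.05 with any 1 library left out. BBC3, the BH3-only protein PUMA and another p53 target, had 71, 86 and 69 counts against 113, 187 and 126 counts, with a log2 fold change of 0.94 (standard error 0.27, unadjusted p = 0.0142). BNIP3, a mitophagy receptor induced by low oxygen, stood at 74.6 ± 5.19 CPM against 106 ± 8.63 CPM (SD, n = 3 each). BCL2L13, also a mitophagy receptor, stood at 59.2 ± 3.22 CPM against 75.8 ± 0.80 CPM (SD, n = 3 each). Groups did not overlap for any of these 4 genes, which were picked by their p. Of all 9 tested genes of the list, 5 were higher without overlap, these 4 and BCL2L15, and 1 was lower. Over all genes tested, 14.8% were higher and 12.3% were lower without overlap.

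The other tested genes of the family did not pass. BCL2L15 had 0, 9 and 0 counts against 17, 23 and 23 counts, with a standard error of 1.29 around its log2 fold change of 2.75. BCL2L14 (log2 fold change 1.03) and BCL2L12 (0.54) overlapped between the groups, and BNIP3L stood at -0.044. BAD, a BH3-only protein switched off by phosphorylation, had a log2 fold change of -0.18 and was lower without overlap, at 16.0 ± 0.87 CPM against 14.1 ± 1.62 CPM (SD, n = 3 each). HRK, a BH3-only gene known from neurons, was under the filter on low counts with all libraries. It had 16, 8 and 21 counts under FNI alone and 2, 0 and 2 counts with the seed. Summed per group and scaled by library size, the ratio was 0.0909 (exact 95% interval 0.0237 to 0.249, counting error only). Fitted without the filter, its unadjusted p was 0.0128 (edgeR's adjusted p = 0.322). It passed the filter in 4 of the 6 fits with 1 library left out, and in these 4 it passed as lower at the unadjusted p. BCL2L10 had at most 4 counts in any library.

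In 4 further lists of the apoptosis pathway 29 genes were tested, and 8 passed at the unadjusted p, all higher, where 17.0% of all genes tested passed in either direction and 9.23% as higher. The median log2 fold change of the 29 genes was 0.33. The count was 5 without FNI replicate 1, where 13.6% of all genes passed, 4 without FNI+I-125 replicate 1, where 9.70% did, and 2 without FNI+I-125 replicate 2, where 1726 of 14327 genes did. Of the 8 caspases, 4 passed, namely CASP10 (log2 fold change 1.32), CASP8 (1.43) and CASP4 (1.41), and the executioner CASP6 (1.06). CASP10 was the 1 caspase that still passed without FNI+I-125 replicate 1 or 2. CASP8 and CASP10 are initiators at death receptors, and CASP4 is an inflammatory caspase. Among 6 inhibitors of apoptosis, BIRC3, which encodes cIAP2 and is induced by NF-κB, had 526, 527 and 306 counts under FNI alone and 1920, 1265 and 1148 counts with the seed. Its log2 fold change was 1.72 (standard error 0.34, unadjusted p = 0.00219, edgeR's adjusted p = 0.280), and it stayed between 1.40 and 1.88 with each library left out. BIRC5, which encodes survivin of dividing cells, passed with 4 to 10 counts in FNI and 11 to 23 counts in FNI+I-125, but passed in only 2 of the 6 fits with 1 library left out. XIAP stood at -0.017 and CFLAR at 0.19.

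In the list of mitochondrial release and the apoptosome, VDAC1 (log2 fold change 0.33) and VDAC3 (0.45) were the 2 of 10 genes that passed. Over all genes tested, 17.0% passed in either direction and 9.23% as higher. VDAC1 and VDAC3 encode channels of the outer mitochondrial membrane. With 1 library left out, VDAC1 passed in 1 of 6 fits, without FNI+I-125 replicate 1, and VDAC3 in 4 of 6. APAF1 stood at 0.33, CYCS at 0.33 and CASP9 at -0.21, and none of these 3 passed. None of the 5 death receptor adaptors passed at the unadjusted p, and their log2 fold changes ran from -0.40 for CRADD to 0.35 for TRADD.

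DESeq2, run as an alternative on the same counts, called 1 member at an adjusted p under 0.05 and a |log2 FC| of 1.5 or more, where 3.34% of all genes were called. This was BCL2A1 (log2 fold change 2.45, adjusted p = 0.0238 from DESeq2's Wald test). For MCL1 the Wald test gave an adjusted p of 0.0457, with a log2 fold change of 0.67 that is under the criterion, so 2 members passed the adjusted p alone, where 6.48% of all genes did. BAX, BCL2L13, BNIP3, CASP10 and BIRC3 also had an adjusted p under 0.05 from DESeq2, with BIRC3 at 7.7e-04.

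As a description of likeness, the genes whose log2(CPM + 1) followed MCL1 and BAK1 most closely over the 6 libraries were listed from 9331 candidates. For MCL1 these were FLII, which encodes an actin-binding protein (Pearson's r = 0.9986), LACC1 (0.9985) and MRPL35, a protein of the mitochondrial ribosome (0.9951). For BAK1 they included APBB1IP, an adaptor of integrin activation in leukocytes (0.9981), and SELPLG, the P-selectin ligand of leukocytes (0.9965). These 5 genes were lowest in FNI replicate 3. These values were picked as the highest of all candidates, and the libraries share the contrast between the groups.

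**Figure D5:**
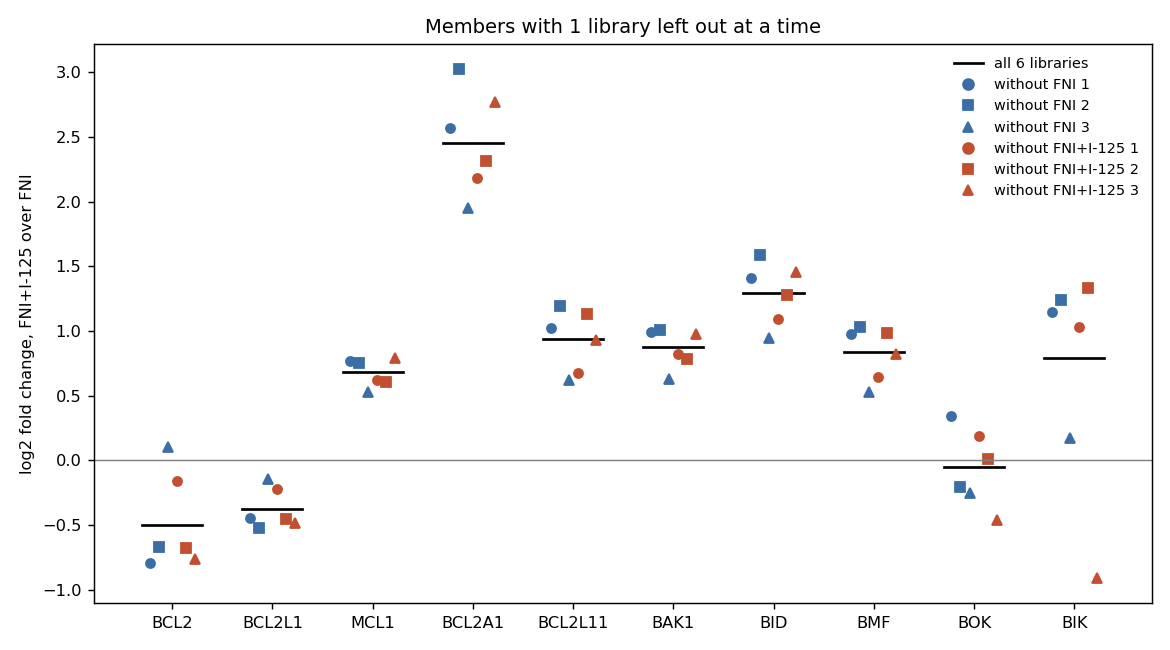
Log2 fold change of FNI+I-125 over FNI for each member (y axis) with all 6 libraries (black line) and with 1 library left out (points). MCL1, BCL2A1, BCL2L11, BAK1, BID and BMF stay above 0 in each case, with the lowest value of each without FNI replicate 3, while BCL2, BOK and BIK cross 0.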

How the data were processed

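The authors prepared stranded mRNA libraries, sequenced them on an Illumina HiSeq platform and deposited raw counts, 1 file a library, as whole numbers that are not normalized. The submitters' processing notes name HISAT2 and the build OryCun2.0. The counting program and its strand setting are not given in the sources used here. Of 2992 LOC identifiers, 542 were named through RefSeq's table for another rabbit assembly, whose coordinates were not used. A date stands where the name of 25 genes should be, and these genes stayed in the tests.

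Counts were fitted with edgeR 4.0.16 in R 4.3.3 (TMM, filterByExpr with a minimum count of 10, glmQLFit and glmQLFTest with default settings, two-sided, Benjamini-Hochberg adjustment over 14003 genes). The criteria were those of the paper, and the unadjusted p was added as a second rule. Standard errors were taken from the F statistic. Single values were compared by a two-sided exact permutation test of log2(CPM + 1) over 10 splits. Alternatives were DESeq2 1.42.0, limma-voom (limma 3.58.1), other normalizations and filters, the replicate number as a block, and each library left out. The tests were first run on simulated data. Members, lists and tests were chosen with earlier results of these data known. Named were all members and BCL2 family genes, other pathway genes at the unadjusted p, and the 3 genes most alike for 1 member of each class, apart from a few genes not reported here. XIAP, CFLAR, APAF1, CYCS, CASP9, CRADD and TRADD were named after their values were seen. The animal numbers in the study's methods give 3 separate rabbits per group.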

Additional observations from a re-analysis of the deposited data

How the results depend on the processing

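The members called at the adjusted p and fold change numbered 0 in edgeR and 1 with DESeq2, which called 464 of all genes. The count over all genes was 0 to 40 with each library left out, with 40 without FNI+I-125 replicate 3. No member was called in any of these. Members at the unadjusted p numbered 2 to 5 with each library left out, and genes numbered 1392 to 2231. The members were MCL1 and BAK1 without FNI+I-125 replicate 1, where 1392 genes passed. They were MCL1 and BCL2L11 without FNI+I-125 replicate 2, where 1726 genes did. The pro-survival minus pro-death difference changed by -0.69 without BCL2A1, by 0.073 with a pseudocount of 5, and by -0.27 to 0.19 with each library left out. It was positive without FNI replicate 3 or FNI+I-125 replicate 1 or 3. With each library left out, log2 fold changes ran from -0.79 to 0.10 for BCL2, from -0.46 to 0.34 for BOK and from -0.91 to 1.33 for BIK. BIK was not tested where every library had to hold 10 counts. The adjusted p of BCL2A1 ran from 0.0238 to 0.503 and that of MCL1 from 0.0457 to 0.502 over all alternatives. The other normalizations, filters, limma-voom and glmQLFit with legacy = FALSE left 4 or 5 members at the unadjusted p. Leaving marker genes of other tissues out of the library sizes moved no fold change, since TMM rescales the sizes. The causes were not tested.

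With the replicate number as a block, 4 members and 2220 genes passed at the unadjusted p and 0 at the adjusted p. The numbers are shared labels only. Deviations from the group means correlated at 0.052, -0.19 and -0.14 between libraries of the same number, and no library correlated best with its own number.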
